A study of Mus musculus with 13 samples.

Results

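The 59 genes described here encode the ligands, receptors, intracellular mediators and secreted regulators of the transforming growth factor beta (TGF-beta) and bone morphogenetic protein (BMP) pathways. They were chosen by gene symbol alone: the TGF-beta, BMP, growth differentiation factor (GDF) and activin or inhibin ligand genes, their receptors, the Smads, the Id genes, the latent TGF-beta binding proteins and the antagonists gremlin, noggin, chordin and follistatin. They were covered by 128 of the 33653 array features that carry a single gene symbol, and they made up 59 of the 19087 genes measured. For 28 genes several features were averaged on the log2 scale, and 31 genes had 1 feature. Smad7 and Gdf15 also meet the naming rule but had no single-symbol feature and were not analysed here.

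Ligands of this family are secreted dimers. TGF-beta is held in the matrix in a latent complex with its binding proteins until it is released. Each ligand brings type I and type II serine/threonine kinase receptors together, and the type I receptor phosphorylates a receptor-regulated Smad, which enters the nucleus with Smad4. TGF-beta and activins act mainly through Smad2 and Smad3, and BMPs through Smad1, Smad5 and Smad9, whose best-known direct targets include the Id genes. In liver, TGF-beta restrains hepatocyte growth and drives matrix production by stellate cells and fibroblasts, and BMP signalling to hepatocytes sets the level of the iron hormone hepcidin.

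RNA was measured in 13 mouse cell samples on one-colour Agilent arrays with Cy3-labelled RNA. All cells lacked p19Arf and came from a C57BL/6-129 background. The 4 induced hepatocyte-like (iHep) samples were each a single epithelial colony, so each stands for 1 colony. Whether a colony grew from 1 cell was not tested. The colonies were taken 21 days after p19Arf-null tail-tip fibroblasts (TTF) received lentiviruses carrying 3 liver-enriched transcription factors, which the labels do not name. A transduced TTF culture of the same day, labelled as a mixture of fibroblasts and epithelial cells, had 1 array and is called the mixed culture here. Primary p19Arf-null mouse hepatocytes, labelled as proliferating and kept in culture for 21 days, had 4 arrays. Mouse embryonic fibroblasts (MEF) and TTF were p19Arf-null cultures at day 42, with 1 and 3 arrays. Both fibroblast types grew in DMEM with 10% FBS, and iHep and hepatocytes in modified Block's medium. Medium and labelled culture day, counted from transduction for iHep and from isolation for hepatocytes and TTF, therefore changed with the group and cannot be told apart from it in the comparisons of iHep and hepatocytes with TTF. The labels do not tell whether replicates were separate animals or cultures, so the p-values describe the spread among these arrays, which may be technical.

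Levels are log2 intensities from which the log2 of the 75th percentile of the same array was subtracted, listed in the order of the replicate numbers. The 75th percentile lay between 1140 and 2260, and 63.2% to 83% of features on an array exceeded the limit of measurement, set at 3 times the local floor of the array. The number of arrays limits the precision. In the rank correlation over all genes the iHep arrays formed 2 pairs (0.965 for replicates 1 and 2, 0.984 for 3 and 4, and 0.905 to 0.928 across the pairs), as did the hepatocyte arrays (0.983 for replicates 1 and 2, 0.98 for 3 and 4, and 0.937 to 0.952 across). The labelled cell types were checked against markers. The summed level of 8 hepatocyte markers was 7.18 to 9.46 on the iHep arrays, 6.95 to 8.82 on the hepatocyte arrays and -2.05 to -0.24 on the TTF arrays. Single markers differed from the sum. Alb was lower on every iHep array (0.79 to 3.98) than on any hepatocyte array (4.59 to 7.14). Apoa1 was higher on every iHep array (2.85 to 3.69 against -1.59 to 2.13). Apoa2 on the iHep arrays (-5.41 to -3.28) overlapped the TTF arrays (-5.08 to -3.77). The other hepatocyte markers overlapped between iHep and hepatocytes. Of 8 fibroblast markers, all 8 exceeded the limit in every group, and their summed level was 0.51, -0.48, 3.71 and 4.38 on the iHep arrays, 3.39, 2.73, 7.54 and 7.13 on the hepatocyte arrays and 8.32, 7.78 and 7.79 on the TTF arrays. Hepatocyte replicates 3 and 4 thus came close to the lowest TTF array in this sum. The summed level of 7 hepatic stellate cell markers was -2.83 to -1.96 in iHep, -0.1 to 1.16 in hepatocytes and -3.99 to -2.95 in TTF. In bulk RNA, fewer cells of a type and less RNA per cell cannot be told apart.

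To be called, a gene had to change at least 2-fold with an adjusted p below 0.05, adjusted over all 19087 genes. The value after ± is the standard error of the fit where it follows a log2 change, and the SD where it follows a mean level. In iHep against TTF, 8 of the 59 genes were called higher, where 6.86% of all genes were, and 12 were called lower, where 6.52% were. In hepatocytes against TTF, 5 were called higher (7.47% of all genes) and 9 lower (4.91%). In iHep against hepatocytes, 5 were called higher (6.25%) and 8 lower (7.5%). The median absolute log2 change of the 59 genes was 1.08, 1.06 and 0.75 in these 3 comparisons in that order, and that of all genes 0.5, 0.56 and 0.57. The median signed change was -0.06, 0.13 and -0.31, and that of all genes 0.07, 0.07 and -0.02. Leaving out 1 array moved some of these counts by more than 1.5 times. The higher genes in hepatocytes against TTF were 8 without TTF replicate 1. The lower ones were 4 without TTF replicate 1, 2 without TTF replicate 2 or 3, 5 without hepatocyte replicate 1 or 2, and 3 without both of these hepatocyte arrays. The higher genes in iHep against hepatocytes were 3 without iHep replicate 1 or 3 or hepatocyte replicate 1 or 2, and 2 without iHep replicate 4, without iHep replicates 3 and 4 together or without hepatocyte replicates 1 and 2 together. With median scaling the split in iHep against hepatocytes was 8 higher and 8 lower. In all, 29 genes were called in at least 1 comparison and 30 in none. Both comparisons with TTF share the same 3 TTF arrays. The map of all 59 levels shows the called genes among the ligands, binding proteins, receptors, Id genes and gremlin. The Smad rows held no call, with Smad9 dim on all arrays and Smad6 uneven among the TTF arrays.

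**Figure D1:**
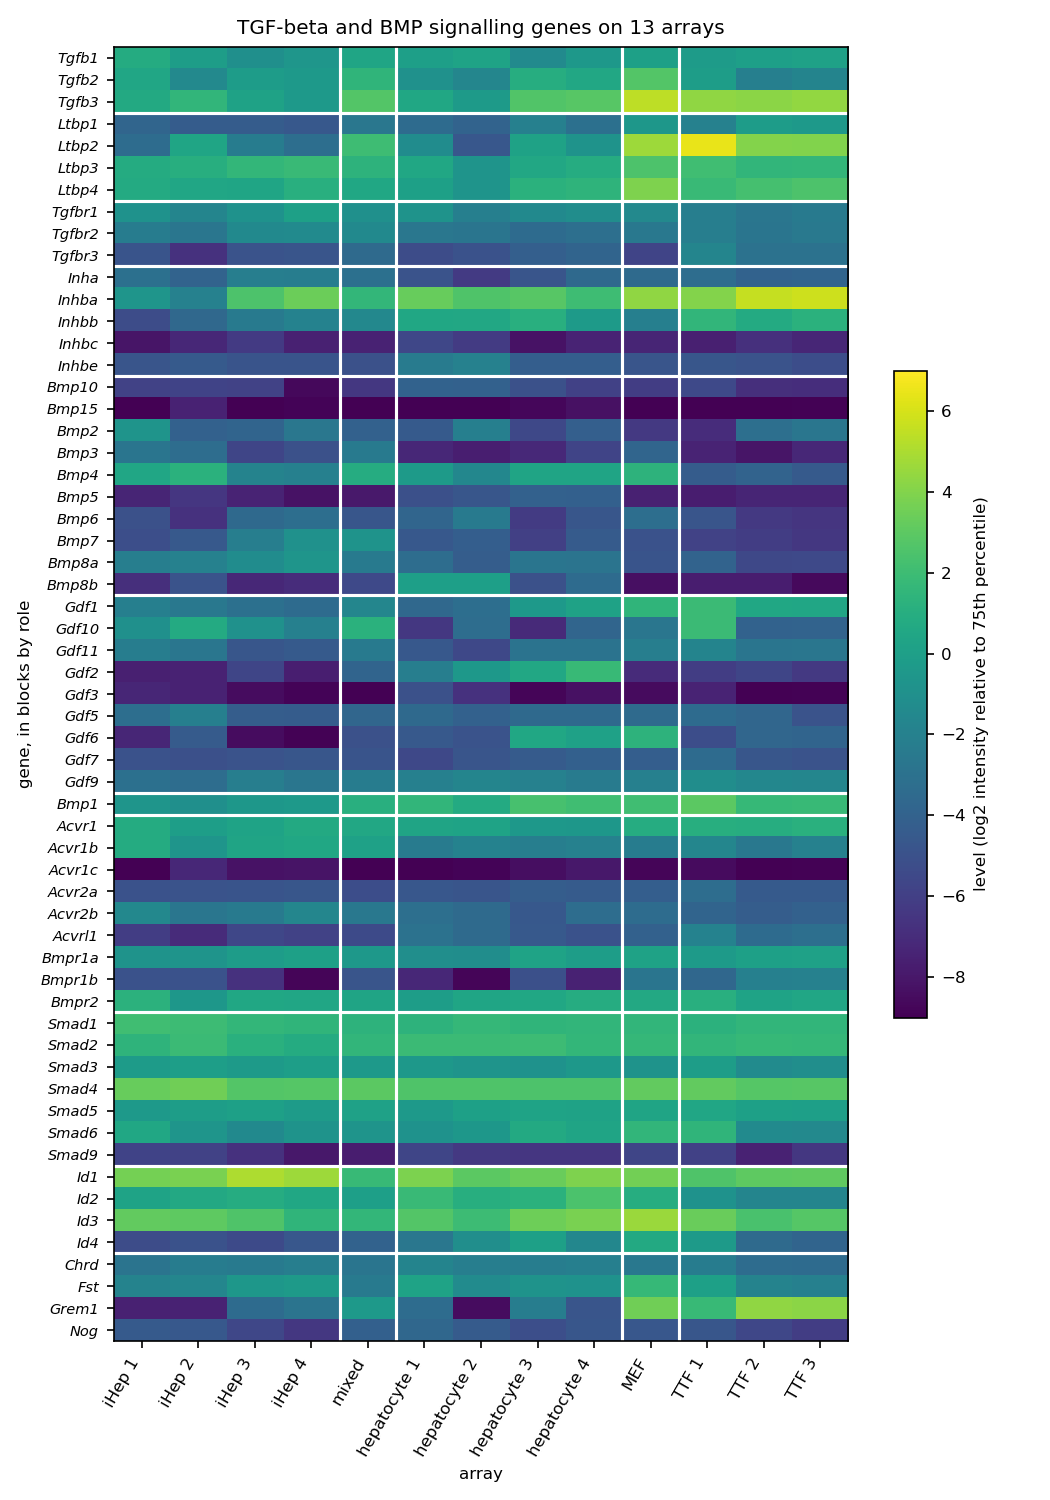
Levels of the 59 genes (rows, in blocks by role separated by white lines) on 13 arrays (columns, groups separated by white lines) (log2 scale, relative to the 75th percentile of each array). Grem1, Ltbp2 and Inhba were brightest on the MEF and TTF arrays, Gdf2 and Bmp5 on the hepatocyte arrays, and none of the 7 Smad rows was called in any comparison.

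The calls fell into a few patterns. Grem1, Ltbp1, Ltbp2, Tgfb3, Tgfbr3 and Bmpr1b were lower in both iHep and hepatocytes than in TTF, and Bmp4 and Id2 were higher in both. Acvr1b, Acvr2b, Bmp3 and Bmp8a were higher in iHep than in both hepatocytes and TTF, while Acvrl1, Bmp1 and Inhbb were lower in iHep than in both. Bmp5, Bmp8b and Gdf2 were higher in hepatocytes than in TTF and lower in iHep than in hepatocytes. Id1 and Tgfbr1 (higher) and Gdf1, Gdf9 and Inhba (lower) were called only in iHep against TTF, Acvr1, Ltbp3 and Ltbp4 (lower) only in hepatocytes against TTF, and Inha (higher), Gdf6 and Id4 (lower) only in iHep against hepatocytes. A call in 1 comparison and not in another is not a test of the difference between them.

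Promoter windows are printed for a pair of genes from each of 3 of these patterns, to set the promoter sequence of genes that moved together side by side. Each window runs from 250 bases before to 50 bases after the gene's start and comes from RefSeq on GRCm38.p6, and 43 of the 59 genes had at least 1 window. Capitals mark motifs searched on both strands, so a reverse complement is in capitals too, and no 2 matches overlap in these windows. The Smad box was searched as CAGAC. Its GC-rich counterpart was searched as GGCGCC. An AP-1 site was searched as TGANTCA. For a TATA box the letters were TATAAA. For a GATA site they were AGATAA. The forkhead site was taken as TGTTTAC. An HNF1 half-site was taken as GTTAAT. Among the genes lower in iHep and hepatocytes than in TTF, the Grem1 window is chr2:113758599-113758898, minus strand, and the Ltbp2 window is chr12:84876442-84876741, minus strand.
Grem1: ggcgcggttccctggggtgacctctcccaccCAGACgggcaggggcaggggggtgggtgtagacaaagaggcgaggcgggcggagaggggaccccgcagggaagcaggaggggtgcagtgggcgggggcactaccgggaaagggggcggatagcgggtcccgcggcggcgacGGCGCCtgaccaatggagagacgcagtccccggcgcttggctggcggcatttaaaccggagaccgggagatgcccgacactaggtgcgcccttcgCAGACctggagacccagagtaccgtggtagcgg
Ltbp2: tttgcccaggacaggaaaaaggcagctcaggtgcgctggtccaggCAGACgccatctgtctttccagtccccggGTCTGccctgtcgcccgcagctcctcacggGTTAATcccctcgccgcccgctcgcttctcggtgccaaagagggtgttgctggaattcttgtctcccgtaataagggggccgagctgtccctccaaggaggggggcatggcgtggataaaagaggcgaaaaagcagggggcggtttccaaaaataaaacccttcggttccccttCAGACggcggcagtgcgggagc
Among the genes higher in both, the Id2 window is chr12:25096043-25096342, minus strand, and the Bmp4 window is chr14:46390620-46390919, minus strand.
Id2: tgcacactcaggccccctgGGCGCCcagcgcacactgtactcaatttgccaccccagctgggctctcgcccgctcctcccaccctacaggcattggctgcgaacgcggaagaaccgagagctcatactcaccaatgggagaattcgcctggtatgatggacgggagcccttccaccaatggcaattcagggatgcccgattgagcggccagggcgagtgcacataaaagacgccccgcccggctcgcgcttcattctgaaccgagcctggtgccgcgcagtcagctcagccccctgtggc
Bmp4: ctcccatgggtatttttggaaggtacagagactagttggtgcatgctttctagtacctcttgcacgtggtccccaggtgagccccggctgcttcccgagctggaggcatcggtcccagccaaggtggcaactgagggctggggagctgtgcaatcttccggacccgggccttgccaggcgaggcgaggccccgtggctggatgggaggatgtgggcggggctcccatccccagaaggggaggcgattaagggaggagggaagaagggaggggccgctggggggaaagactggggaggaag
Among the genes higher in hepatocytes than in iHep and TTF, the Gdf2 window is chr14:33940789-33941088, plus strand, and the Bmp5 window is chr9:75775115-75775414, plus strand.
Gdf2: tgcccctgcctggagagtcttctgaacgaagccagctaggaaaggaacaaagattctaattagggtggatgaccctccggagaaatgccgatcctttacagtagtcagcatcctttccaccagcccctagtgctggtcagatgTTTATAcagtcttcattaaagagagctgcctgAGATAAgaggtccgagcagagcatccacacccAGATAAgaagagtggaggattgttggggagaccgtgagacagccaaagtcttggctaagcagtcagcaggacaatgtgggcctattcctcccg
Bmp5: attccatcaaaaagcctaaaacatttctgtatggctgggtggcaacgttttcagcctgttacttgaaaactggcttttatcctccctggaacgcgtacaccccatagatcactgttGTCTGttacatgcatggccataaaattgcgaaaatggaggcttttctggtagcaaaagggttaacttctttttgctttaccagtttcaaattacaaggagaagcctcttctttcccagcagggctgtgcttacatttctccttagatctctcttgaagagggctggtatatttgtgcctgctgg
The first 4 windows were GC-rich, with 70.7% G and C and 28 CpG dinucleotides in Grem1, 61% and 20 in Ltbp2, 63.3% and 21 in Id2, and 64% and 12 in Bmp4. The other 2 were not, with 51% and 6 CpG in Gdf2 and 43.3% and 4 CpG in Bmp5, against medians of 52.7% and 7 over all 32851 windows. The 43 genes had 53 windows. The Smad box was found in 25 of these 53 windows and in 49.6% of all windows, and the GC-rich Smad site in 15 of the 53 and in 11.9% of all windows. The other motifs were found in 0 to 6 of the 53, against 3.65% to 13.6% of all windows. Ltbp2 held 3 Smad boxes and the single HNF1 half-site, and Grem1 held 2 Smad boxes and a GC-rich site. Gdf2 held 2 GATA sites and, at position -107, the TATA letters as a reverse complement. Bmp4 held none of the 7 motifs in this window. These are matches of letters and were not tested as binding sites.

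Among the TGF-beta ligands, the level of Tgfb3 was lower in both iHep and hepatocytes than in TTF, and Tgfb1 and Tgfb2 were not called in any comparison. Tgfb1 encodes the most widely made form, Tgfb2 and Tgfb3 forms with more restricted expression. Tgfb3 was at 0.73, 1.54, 0.22 and -0.33 on the iHep arrays, 0.52, -0.27, 2.67 and 2.87 on the hepatocyte arrays and 4.33, 4.24 and 4.41 on the TTF arrays. Every iHep and hepatocyte array lay below every TTF array, and hepatocyte replicates 3 and 4 lay closest to TTF. In iHep Tgfb3 fell by 3.79 ± 0.74 (adjusted p = 0.0061) against TTF, and in hepatocytes it fell by 2.88 ± 0.74 (adjusted p = 0.028). The hepatocyte call did not hold without TTF replicate 1, 2 or 3, or without hepatocyte replicate 1 or 2, or without hepatocyte replicates 1 and 2 together (log2 change -1.56 to -2.92, adjusted p = 0.054 to 0.11). Tgfb1 was at 0.82, -0.12, -1.01 and -0.62 on the iHep arrays, 0.0, 0.29, -1.33 and -0.46 on the hepatocyte arrays and -0.21, 0.04 and 0.17 on the TTF arrays, with overlapping groups and log2 changes against TTF of -0.23 ± 0.47 (adjusted p = 0.81) in iHep and -0.38 ± 0.47 (adjusted p = 0.67) in hepatocytes. Its 10 features differed little within an array, with a median SD of 0.05, so the spread between arrays was not spread between features. Tgfb2 was at 0.46, -1.47, -0.17 and -0.37 on the iHep arrays, -0.92, -1.68, 0.94 and 0.6 on the hepatocyte arrays and -0.09, -2.07 and -1.81 on the TTF arrays, again with overlap, and its changes against TTF were 0.94 ± 0.72 (adjusted p = 0.48) in iHep and 1.06 ± 0.72 (adjusted p = 0.38) in hepatocytes.

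All 4 latent TGF-beta binding protein genes were called lower in hepatocytes than in TTF, and 2 of them, Ltbp1 and Ltbp2, in iHep as well. These proteins tie latent TGF-beta to the extracellular matrix. Ltbp2 differs from the others in that its product does not bind latent TGF-beta and instead attaches to fibrillin microfibrils. Ltbp2 was at -3.35, 0.4, -2.26 and -3.25 on the iHep arrays, -1.24, -4.67, 0.22 and -0.79 on the hepatocyte arrays and 6.47, 4.03 and 3.97 on the TTF arrays. All TTF arrays lay above all iHep and hepatocyte arrays, and iHep replicate 2 and hepatocyte replicate 3 were the highest of their groups. Ltbp2 fell by 6.94 ± 1.22 (adjusted p = 0.0036) in iHep and fell by 6.45 ± 1.22 (adjusted p = 0.0068) in hepatocytes. Ltbp1 was at -3.77, -4.36, -4.37 and -4.6 on the iHep arrays, -3.39, -3.93, -2.06 and -3.11 on the hepatocyte arrays and -1.97, -0.15 and -0.37 on the TTF arrays, with TTF replicate 1 the lowest TTF array. It fell by 3.44 ± 0.52 (adjusted p = 0.0014) in iHep and fell by 2.29 ± 0.52 (adjusted p = 0.016) in hepatocytes, where the call did not hold without TTF replicate 2 or 3, or without hepatocyte replicates 1 and 2 together (log2 change -1.75 to -2.06, adjusted p = 0.078 to 0.13).

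Ltbp3 and Ltbp4 showed smaller differences. Ltbp4 was at 0.81, 0.49, 0.42 and 1.11 on the iHep arrays, 0.1, -0.73, 1.21 and 1.4 on the hepatocyte arrays and 1.87, 2.29 and 2.54 on the TTF arrays. No hepatocyte or iHep array reached the TTF range, although hepatocyte replicates 3 and 4 lay above all 4 iHep arrays. In hepatocytes Ltbp4 fell by 1.74 ± 0.48 (adjusted p = 0.037), and the change in iHep was -1.53 ± 0.48 (adjusted p = 0.06). Ltbp4's hepatocyte call did not hold without TTF replicate 1, 2 or 3, or without hepatocyte replicate 1 or 2, or without hepatocyte replicates 1 and 2 together, or in a fit of these 2 groups alone (log2 change -0.93 to -1.92, adjusted p = 0.055 to 0.15). Ltbp3 averaged 0.33 ± 0.71 on the hepatocyte arrays and 1.73 ± 0.29 on the TTF arrays (SD, n = 4 and 3), and it fell by 1.41 ± 0.41 (adjusted p = 0.048). Ltbp3's call did not hold without TTF replicate 1, 2 or 3, or without iHep replicate 2 or 3, or without hepatocyte replicate 1, 2 or 3, or without hepatocyte replicates 1 and 2 together, or with the brightest probe standing for the gene, or in a fit of these 2 groups alone (log2 change -0.98 to -2.21, adjusted p = 0.052 to 0.19).

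Of the TGF-beta receptor genes, Tgfbr3 was lower in iHep and hepatocytes than in TTF, Tgfbr1 was higher in iHep, and Tgfbr2 was not called. Tgfbr1 and Tgfbr2 encode the type I and type II kinases, and Tgfbr3 encodes betaglycan, a co-receptor that presents TGF-beta2 and also binds inhibin. Tgfbr3 was at -4.86, -6.75, -4.88 and -4.8 on the iHep arrays, -5.31, -5.0, -4.14 and -3.86 on the hepatocyte arrays and -1.74, -2.94 and -2.97 on the TTF arrays, and all TTF arrays lay above all iHep and hepatocyte arrays. It fell by 2.77 ± 0.56 (adjusted p = 0.0078) in iHep, where 3 of 4 arrays exceeded the limit of measurement, and fell by 2.03 ± 0.56 (adjusted p = 0.039) in hepatocytes. Tgfbr3's hepatocyte call did not hold without TTF replicate 1, 2 or 3, or without hepatocyte replicate 1 or 2, or without hepatocyte replicates 1 and 2 together (log2 change -1.45 to -2.24, adjusted p = 0.08 to 0.25). Tgfbr1 was at -0.84, -1.7, -0.84 and 0.07 on the iHep arrays, -0.78, -2.12, -1.4 and -1.18 on the hepatocyte arrays and -2.16, -2.7 and -2.44 on the TTF arrays. All iHep and hepatocyte arrays lay above the TTF arrays, with iHep replicate 4 the highest. Tgfbr1 rose by 1.6 ± 0.43 (adjusted p = 0.03) in iHep, and its change in hepatocytes was 1.06 ± 0.43 (adjusted p = 0.13). The iHep call of Tgfbr1 did not hold without TTF replicate 1, 2 or 3, or without iHep replicate 1, 3 or 4, or without iHep replicates 3 and 4 together, or without hepatocyte replicates 3 and 4 together, or in a fit of these 2 groups alone (log2 change 1.16 to 1.74, adjusted p = 0.052 to 0.13). Tgfbr2 was at -2.31, -2.7, -1.39 and -1.33 on the iHep arrays, -2.66, -2.76, -3.4 and -3.13 on the hepatocyte arrays and -2.13, -2.77 and -2.52 on the TTF arrays, with overlapping groups. Its log2 changes were 0.54 ± 0.38 (adjusted p = 0.42) in iHep against TTF, -0.51 ± 0.38 (adjusted p = 0.42) in hepatocytes against TTF and 1.05 ± 0.35 (adjusted p = 0.069) in iHep against hepatocytes. The features averaged for Tgfbr2 differed. The brightest was at 1.71 to 2.62 on the hepatocyte arrays, below every iHep array (3.07 to 4.64) and TTF array (3.28 to 3.97). In hepatocytes against TTF it gave a log2 difference of -1.4, and the dimmer features gave -0.81 and 0.67. In iHep against hepatocytes it gave 1.68, and they gave 1.33 and 0.15.

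Of the 5 activin and inhibin subunit genes, Inhba and Inhbb were lower in iHep than in TTF, and none was called in hepatocytes against TTF. Dimers of the Inhba product form activin A, dimers of the Inhbb product form activin B, and either pairs with the Inha product to form an inhibin. Inhba was at -0.64, -2.0, 2.54 and 3.4 on the iHep arrays, 3.3, 2.59, 2.86 and 2.02 on the hepatocyte arrays and 4.02, 5.57 and 5.77 on the TTF arrays. The iHep arrays split, with replicates 1 and 2 far below replicates 3 and 4, and all iHep and hepatocyte arrays lay below the TTF arrays. Inhba fell by 4.29 ± 1.12 (adjusted p = 0.028) in iHep, with a log2 change of -6.44 on replicates 1 and 2 alone (adjusted p = 0.00033) and of -2.15 on replicates 3 and 4 alone (adjusted p = 0.031), and its change in hepatocytes was -2.43 ± 1.12 (adjusted p = 0.19). Its iHep call did not hold without TTF replicate 2 or 3, or without iHep replicate 1, or without hepatocyte replicates 1 and 2 together, or without hepatocyte replicates 3 and 4 together, or in a fit of these 2 groups alone (log2 change -3.81 to -4.29, adjusted p = 0.052 to 0.11). Fibroblast markers moved with the same split, with summed levels of 0.51 and -0.48 on iHep replicates 1 and 2 and 3.71 and 4.38 on replicates 3 and 4, and their part in the result was not tested.

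Inhbb was at -5.26, -3.61, -2.44 and -1.88 on the iHep arrays, 0.55, 0.58, 1.07 and -0.29 on the hepatocyte arrays and 1.5, 0.75 and 1.24 on the TTF arrays. The iHep arrays lay below all hepatocyte and TTF arrays, which overlapped. It fell by 4.47 ± 0.69 (adjusted p = 0.0016) in iHep against TTF and fell by 3.78 ± 0.64 (adjusted p = 0.0036) against hepatocytes. Its 2 features agreed in these directions, and the brighter one alone fell by 7.59 (adjusted p = 0.00084) in iHep against TTF. In hepatocytes against TTF the same 2 features went opposite ways, with log2 differences of -3.37 and 1.99, so their mean of -0.69 ± 0.69 (adjusted p = 0.57) does not describe either. Inha was at -3.11, -3.93, -2.18 and -2.21 on the iHep arrays, against -4.93, -6.29, -4.79 and -3.55 on the hepatocyte arrays, and it rose by 2.03 ± 0.56 (adjusted p = 0.036) in iHep against hepatocytes, with overlap at iHep replicate 2 and hepatocyte replicate 4. Inha's call did not hold without TTF replicate 2 or 3, or without iHep replicate 1, 3 or 4, or without hepatocyte replicate 1, 2 or 3, or without iHep replicates 3 and 4 together, or without hepatocyte replicates 1 and 2 together, or with the brightest probe standing for the gene, or in a fit of these 2 groups alone (log2 change 1.31 to 3.46, adjusted p = 0.053 to 0.2). Inhbe, which in rodents is expressed mainly by hepatocytes, was at -4.79, -4.45, -4.86 and -4.83 on the iHep arrays, -2.32, -2.0, -4.24 and -4.2 on the hepatocyte arrays and -4.73, -4.92 and -5.19 on the TTF arrays. Hepatocyte replicates 1 and 2 stood above all other arrays, and its log2 change in hepatocytes against TTF was 1.76 ± 0.53 (adjusted p = 0.054). Inhbc, its neighbour on chromosome 10 in the RefSeq gene table of GRCm38.p6 (the source for neighbours here), was near the limit of measurement and was not called.

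Of the 10 BMP ligand genes, 3 rose in iHep against TTF (Bmp3, Bmp4 and Bmp8a) and 3 rose in hepatocytes against TTF (Bmp4, Bmp5 and Bmp8b), and none fell in either. Bmp4, a ligand used from gastrulation to organ growth and known to induce liver fate from the embryonic septum transversum, was at 0.47, 1.21, -1.85 and -2.01 on the iHep arrays, -0.3, -1.58, 0.33 and 0.32 on the hepatocyte arrays and -4.33, -3.9 and -4.44 on the TTF arrays. Every TTF array lay below every iHep and hepatocyte array, and the iHep arrays split, with replicates 1 and 2 above replicates 3 and 4. Bmp4 rose by 3.67 ± 0.78 (adjusted p = 0.01) in iHep and rose by 3.92 ± 0.78 (adjusted p = 0.0089) in hepatocytes, differences of 12.8-fold and 15.1-fold. The iHep change was 2.29 on replicates 3 and 4 alone (adjusted p = 0.018). The hepatocyte call did not hold without hepatocyte replicates 3 and 4 together (log2 change 3.28, adjusted p = 0.051). Its 10 features differed within an array by a median SD of 0.05, and the between-array SD within a group was 0.29 to 1.63, so the spread lay between arrays rather than between features.

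**Figure D2:**
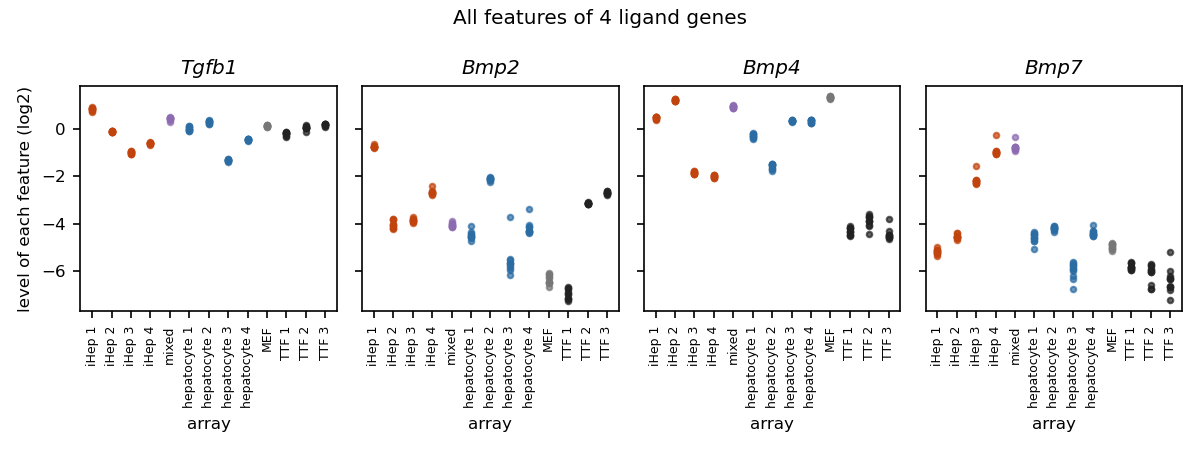
Level of each feature (points) of Tgfb1, Bmp2, Bmp4 and Bmp7 on each of 13 arrays (log2 scale, relative to the 75th percentile of each array). The median SD among the 10 or 11 features of a gene on an array was 0.05 to 0.15, and the highest was 0.67 for Bmp2 and 0.52 for Bmp7, against SDs between the arrays of a group of up to 2.35 for Bmp2 and 1.99 for Bmp7.

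Bmp8a and Bmp8b are close paralogs and could share signal on the array, yet they moved differently. Bmp8a was at -2.14, -1.94, -1.24 and -0.64 on the iHep arrays, -3.26, -4.3, -2.8 and -2.82 on the hepatocyte arrays and -3.9, -5.51 and -5.45 on the TTF arrays, and Bmp8b was at -6.83, -4.91, -7.19 and -6.97 on the iHep arrays, 0.06, 0.01, -5.05 and -3.4 on the hepatocyte arrays and -7.7, -7.73 and -8.61 on the TTF arrays. Bmp8a was highest on the iHep arrays, which did not overlap the hepatocyte or TTF arrays. It rose by 3.46 ± 0.54 (adjusted p = 0.0017) in iHep against TTF and rose by 1.8 ± 0.5 (adjusted p = 0.035) against hepatocytes, where the call did not hold without iHep replicate 3 or 4, or without hepatocyte replicate 1 or 2, or without iHep replicates 3 and 4 together, or without hepatocyte replicates 1 and 2 together (log2 change 1.25 to 1.82, adjusted p = 0.073 to 0.2). Bmp8b was highest on hepatocyte replicates 1 and 2, and no TTF or MEF array exceeded the limit of measurement. It was at least 36.8-fold higher in hepatocytes than in TTF (adjusted p = 0.0075), and the fitted log2 change was 3.79 on hepatocyte replicates 3 and 4 alone (adjusted p = 0.022), a size that rests on TTF levels under the limit. Against hepatocytes, Bmp8b fell by 4.38 ± 1.06 (adjusted p = 0.02) in iHep. That call did not hold without iHep replicate 3, or without hepatocyte replicate 1 or 2, or without iHep replicates 3 and 4 together, or without hepatocyte replicates 1 and 2 together (log2 change -2.25 to -4.14, adjusted p = 0.053 to 0.11).

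Bmp3, whose product counters bone-forming BMPs, was at -2.81, -3.26, -5.64 and -5.06 on the iHep arrays, -7.21, -7.68, -7.14 and -5.74 on the hepatocyte arrays and -7.41, -8.1 and -7.24 on the TTF arrays. The iHep arrays lay above all hepatocyte and TTF arrays, with replicates 1 and 2 the highest. It rose by 3.39 ± 0.69 (adjusted p = 0.0082) in iHep against TTF and rose by 2.75 ± 0.64 (adjusted p = 0.017) against hepatocytes. On iHep replicates 3 and 4 alone the change against TTF was 2.23 (adjusted p = 0.021). The features averaged for Bmp3 gave log2 differences of 4.29 and 2.49 in iHep against TTF. Against hepatocytes they gave 3.81 and 1.69. The first feature was dim on the TTF arrays (-9.16 to -8.86) and the hepatocyte arrays (-9.38 to -6.74), so the averaged sizes depend on that dim signal. Bmp3's call against hepatocytes did not hold without iHep replicates 1 and 2 together, or without hepatocyte replicates 1 and 2 together, or with the brightest probe standing for the gene (log2 change 1.59 to 2.25, adjusted p = 0.058 to 0.13). Bmp5 was at -7.37, -6.48, -7.41 and -8.21 on the iHep arrays, -5.08, -4.69, -4.03 and -4.07 on the hepatocyte arrays and -7.72, -7.35 and -7.36 on the TTF arrays, and every hepatocyte array lay above all iHep and TTF arrays. It rose by 3.01 ± 0.41 (adjusted p = 0.001) in hepatocytes against TTF and fell by 2.9 ± 0.38 (adjusted p = 0.00089) in iHep against hepatocytes. Both Bmp5 calls held in every alternative. The features averaged for Bmp5 differed in size, with log2 differences of 4.14, 4.31 and 0.58 in hepatocytes against TTF. In iHep against hepatocytes the same features gave -4.48, -4.19 and -0.04. The last of them was dim on every array, at -9.33 to -7.46. For Bmp5, 3 of 4 iHep arrays exceeded the limit of measurement.

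The remaining BMP ligand genes were not called. Bmp2 was at -0.75, -4.03, -3.85 and -2.67 on the iHep arrays, -4.48, -2.11, -5.55 and -4.18 on the hepatocyte arrays and -6.97, -3.14 and -2.7 on the TTF arrays. TTF replicate 1 lay far below the other TTF arrays, iHep replicate 1 far above the other iHep arrays, and the groups overlapped. Its changes were 1.44 ± 1.16 (adjusted p = 0.5) in iHep and 0.19 ± 1.16 (adjusted p = 0.94) in hepatocytes against TTF. Bmp7 was at -5.18, -4.54, -2.17 and -0.93 on the iHep arrays, against -5.82, -6.11 and -6.39 on the TTF arrays. All iHep arrays lay above the TTF arrays, replicates 3 and 4 most, and the change was 2.9 ± 0.9 (adjusted p = 0.057). Bmp6, the BMP that sets hepcidin in vivo through liver endothelial cells, had log2 changes of 1.26 ± 1.0 in iHep and 1.63 ± 1.0 in hepatocytes against TTF (adjusted p = 0.49 and 0.32). Bmp10 ranged from -8.68 to -5.79 on the iHep arrays, -5.89 to -3.99 on the hepatocyte arrays and -6.92 to -5.47 on the TTF arrays. Its log2 changes were 1.68 ± 0.76 (adjusted p = 0.18) in hepatocytes against TTF and -1.81 ± 0.71 (adjusted p = 0.11) in iHep against hepatocytes. Bmp15, an oocyte factor, exceeded the limit of measurement on no array.

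Bmp1 shares the family's name but encodes a procollagen protease that also frees BMPs from chordin. It was at -0.64, -1.01, -0.55 and -0.32 on the iHep arrays, 1.54, 0.77, 2.35 and 2.09 on the hepatocyte arrays and 2.96, 1.72 and 1.75 on the TTF arrays. All iHep arrays lay below 0, and every hepatocyte and TTF array lay above 0. Bmp1 fell by 2.78 ± 0.43 (adjusted p = 0.0017) in iHep against TTF and fell by 2.32 ± 0.4 (adjusted p = 0.004) against hepatocytes, and both calls held in every alternative.

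Of the 9 GDF genes, Gdf2 was the one called higher in hepatocytes than in TTF, and Gdf1 and Gdf9 were called lower in iHep than in TTF. Gdf2 encodes BMP9, a circulating ligand made chiefly by the liver, where stellate cells are its main source in mice, and it signals through the receptor encoded by Acvrl1. Gdf2 was at -7.59, -7.45, -5.64 and -7.67 on the iHep arrays, -2.17, -0.48, 0.57 and 1.77 on the hepatocyte arrays and -6.08, -5.63 and -6.32 on the TTF arrays. All hepatocyte arrays lay above all iHep and TTF arrays, with replicates 3 and 4 the highest. Gdf2 rose by 5.93 ± 0.81 (adjusted p = 0.0011) in hepatocytes against TTF, 61.1-fold, and fell by 7.01 ± 0.75 (adjusted p = 0.00028) in iHep against hepatocytes. Since 1 of 4 iHep arrays exceeded the limit, the size of the difference from hepatocytes depends on that limit. Both Gdf2 calls held in every alternative. The summed level of the 7 stellate cell markers was -2.83 to -1.96 on the iHep arrays, -0.1 to 1.16 on the hepatocyte arrays and -3.99 to -2.95 on the TTF arrays. Of these markers Lrat, Reln, Des and Hand2 were higher on every hepatocyte array than on any iHep or TTF array, Ngfr and Gfap overlapped between iHep and hepatocytes, and Rgs5 was highest on iHep replicates 3 and 4. The MEF array had the highest stellate sum, 2.49, with Gdf2 at -7.04. Its brightest stellate marker was Des, at 2.3, followed by Ngfr at -1.06 and Hand2 at -2.47. Rgs5 was at -4.71, Reln at -7.67, Gfap at -8.66 and Lrat, under the limit, at -8.67. The 7 markers each exceeded the limit on at least 1 array of the iHep, hepatocyte and TTF groups, and their part in the Gdf2 result was not tested.

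Gdf1 was at -2.08, -2.58, -3.07 and -3.41 on the iHep arrays, -3.57, -3.22, -0.32 and 0.19 on the hepatocyte arrays and 1.93, 0.53 and 0.49 on the TTF arrays, and iHep and TTF did not overlap. It fell by 3.77 ± 0.88 (adjusted p = 0.016) in iHep, a call that did not hold without TTF replicate 1, or without iHep replicates 3 and 4 together (log2 change -3.3 to -3.31, adjusted p = 0.066 to 0.093). Gdf1 shares a transcript with a ceramide synthase gene, so its feature may report both. Gdf9, another oocyte factor, averaged -2.81 ± 0.51 on the iHep arrays and -1.49 ± 0.27 on the TTF arrays (SD, n = 4 and 3), and it fell by 1.33 ± 0.31 (adjusted p = 0.017). Gdf9's call did not hold without TTF replicate 1 or 2, or without iHep replicates 1 and 2 together (log2 change -0.95 to -1.39, adjusted p = 0.052 to 0.064). Gdf6, a joint and skeletal factor, was at -7.28, -4.42, -8.47 and -8.92 on the iHep arrays, against -4.54, -4.93, 0.54 and 0.18 on the hepatocyte arrays. Hepatocyte replicates 3 and 4 stood far above replicates 1 and 2, which overlapped iHep replicate 2. Gdf6 fell by 5.09 ± 1.38 (adjusted p = 0.032) in iHep against hepatocytes, with 2 of 4 iHep arrays above the limit, and the call did not hold without iHep replicate 1, 3 or 4, or without hepatocyte replicate 3 or 4, or without iHep replicates 3 and 4 together, or without hepatocyte replicates 3 and 4 together, or in a fit of these 2 groups alone (log2 change -2.54 to -5.09, adjusted p = 0.06 to 0.18). The 5 other GDF genes were not called in any comparison. Of these, Gdf10, which lies next to Gdf2 on chromosome 14, was at -0.98, 0.76, -0.89 and -2.05 on the iHep arrays, -6.38, -3.27, -7.1 and -3.78 on the hepatocyte arrays and 1.89, -4.0 and -3.93 on the TTF arrays, a change of 4.34 ± 1.34 (adjusted p = 0.053) in iHep against hepatocytes.

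Among the 9 BMP and activin receptor genes, Acvr1b and Acvr2b rose in iHep against TTF, Acvrl1 and Bmpr1b fell, and Acvr1 and Bmpr1b fell in hepatocytes against TTF. Acvr1b encodes the main type I receptor for activins, and Acvr2b a type II receptor for activins and BMPs. Acvr1b was at 0.84, -0.65, 0.35 and 0.51 on the iHep arrays, -2.32, -1.88, -2.13 and -1.97 on the hepatocyte arrays and -1.67, -2.58 and -1.99 on the TTF arrays. The iHep arrays lay above all hepatocyte and TTF arrays, which overlapped. It rose by 2.34 ± 0.37 (adjusted p = 0.0018) in iHep against TTF and rose by 2.34 ± 0.34 (adjusted p = 0.0016) against hepatocytes, while the hepatocyte change against TTF was 0.0 ± 0.37 (adjusted p = 1.0) with a 95% interval of -0.81 to 0.81. Acvr2b averaged -2.11 ± 0.59 on the iHep arrays, -3.64 ± 0.66 on the hepatocyte arrays and -4.06 ± 0.21 on the TTF arrays (SD, n = 4, 4 and 3). Acvr2b rose by 1.95 ± 0.41 (adjusted p = 0.0099) in iHep against TTF and rose by 1.53 ± 0.38 (adjusted p = 0.024) against hepatocytes. Acvr2b's call against hepatocytes did not hold without iHep replicate 1 or 4, or without iHep replicates 3 and 4 together, or without hepatocyte replicates 3 and 4 together, or in a fit of these 2 groups alone (log2 change 1.21 to 1.53, adjusted p = 0.055 to 0.079).

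Acvrl1, which lies next to Acvr1b on chromosome 15 and encodes an endothelial type I receptor for the Gdf2 product, went the other way. It was at -6.1, -7.05, -5.62 and -5.87 on the iHep arrays, -2.96, -3.44, -4.52 and -4.98 on the hepatocyte arrays and -1.9, -3.39 and -3.16 on the TTF arrays. The iHep arrays lay below all hepatocyte and TTF arrays. Acvrl1 fell by 3.34 ± 0.56 (adjusted p = 0.0027) in iHep against TTF, with 3 of 4 iHep arrays above the limit, and fell by 2.18 ± 0.52 (adjusted p = 0.019) against hepatocytes. Its call against hepatocytes did not hold without hepatocyte replicate 1 or 2, or without iHep replicates 1 and 2 together, or without hepatocyte replicates 1 and 2 together (log2 change -1.41 to -2.01, adjusted p = 0.052 to 0.14). The summed level of 6 endothelial markers was -2.15 to 1.13 on the iHep arrays, -1.2 to 1.83 on the hepatocyte arrays and -3.24 to -1.39 on the TTF arrays. Of these markers Kdr and Stab2 were lower on every iHep array than on any hepatocyte array, Tie1 was under the limit on all iHep and TTF arrays, and Pecam1 overlapped between iHep and hepatocytes. Cdh5, at 0.25 and 0.82, and Tek, at -1.74 and -1.64, were higher on iHep replicates 3 and 4 than on any hepatocyte array. The part of endothelial cells in the Acvrl1 result was not tested.

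Bmpr1b, a type I BMP receptor of skeletal and ovarian cells, was at -4.98, -4.99, -6.72 and -8.81 on the iHep arrays, -7.19, -8.8, -5.07 and -7.46 on the hepatocyte arrays and -3.64, -2.05 and -1.99 on the TTF arrays. All iHep and hepatocyte arrays lay below the TTF arrays, and 3 of 4 iHep and 2 of 4 hepatocyte arrays exceeded the limit of measurement. Bmpr1b fell by 3.82 ± 1.03 (adjusted p = 0.032) in iHep, a call that did not hold without TTF replicate 2 or 3, or without iHep replicate 3 or 4, or without iHep replicates 3 and 4 together (log2 change -2.43 to -3.7, adjusted p = 0.059 to 0.14). In hepatocytes it fell by 4.57 ± 1.03 (adjusted p = 0.016), and that call did not hold without TTF replicate 2 or 3, or without hepatocyte replicates 1 and 2 together (log2 change -3.71 to -4.31, adjusted p = 0.068 to 0.12). Acvr1, a widely expressed type I BMP receptor, was at 0.82, -0.06, 0.28 and 0.72 on the iHep arrays, 0.34, 0.29, -0.46 and -0.53 on the hepatocyte arrays and 1.05, 0.98 and 1.15 on the TTF arrays. Hepatocyte replicates 3 and 4 were the lowest arrays, and it fell by 1.15 ± 0.32 (adjusted p = 0.038) in hepatocytes. Acvr1's call did not hold without TTF replicate 1, 2 or 3, or without iHep replicate 3, or without hepatocyte replicate 3 or 4, or without hepatocyte replicates 3 and 4 together (log2 change -0.75 to -1.19, adjusted p = 0.052 to 0.17). Bmpr1a and Bmpr2, the broadly expressed BMP receptors, were not called. Bmpr1a was at -0.77, -0.71, -0.16 and 0.09 on the iHep arrays, -1.08, -1.14, 0.25 and -0.12 on the hepatocyte arrays and -0.29, 0.07 and 0.16 on the TTF arrays, and Bmpr2 at 1.29, -0.55, 0.5 and 0.48 on the iHep arrays, -0.09, 0.38, 0.55 and 0.91 on the hepatocyte arrays and 1.1, 0.28 and 0.46 on the TTF arrays. Their groups overlapped, with log2 changes against TTF of -0.37 ± 0.39 (adjusted p = 0.62) and -0.18 ± 0.42 (adjusted p = 0.84) in iHep and of -0.51 ± 0.39 (adjusted p = 0.44) and -0.17 ± 0.42 (adjusted p = 0.84) in hepatocytes.

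None of the 7 Smad genes measured was called in any comparison. Their log2 changes ran from -0.33 to 0.67 in iHep against TTF, with 95% intervals between -1.77 and 1.5, and from -0.37 to 0.36 in hepatocytes against TTF, with intervals between -1.28 and 1.99. Smad4, the partner of all receptor-regulated Smads, was at 3.3, 3.56, 2.7 and 2.78 on the iHep arrays, 2.61, 2.6, 2.54 and 2.51 on the hepatocyte arrays and 3.18, 2.76 and 2.85 on the TTF arrays. Its changes against TTF were 0.15 ± 0.27 (adjusted p = 0.78) in iHep and -0.37 ± 0.27 (adjusted p = 0.41) in hepatocytes. Smad3, which carries TGF-beta and activin signals, was at -0.24, -0.03, -0.3 and -0.05 on the iHep arrays, -0.48, -0.69, -0.83 and -0.49 on the hepatocyte arrays and -0.09, -1.27 and -1.11 on the TTF arrays, a change of 0.67 ± 0.3 (adjusted p = 0.19) in iHep. TTF replicate 1 was the highest TTF array for Smad3 and for its chromosome 9 neighbour Smad6, an inhibitory Smad, which was at 0.56, -0.68, -1.43 and -0.76 on the iHep arrays, -0.87, -0.54, 0.72 and 0.33 on the hepatocyte arrays and 1.49, -1.34 and -1.48 on the TTF arrays. Smad6 varied more among the TTF arrays than between the group means, and its change in iHep was -0.14 ± 0.74 (adjusted p = 0.94). The intervals of Smad6 and Smad9 reached beyond a 2-fold change in both comparisons with TTF. That of Smad3 did so in iHep against TTF (0.01 to 1.33). Changes of that size are therefore not excluded for these genes.

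**Figure D3:**
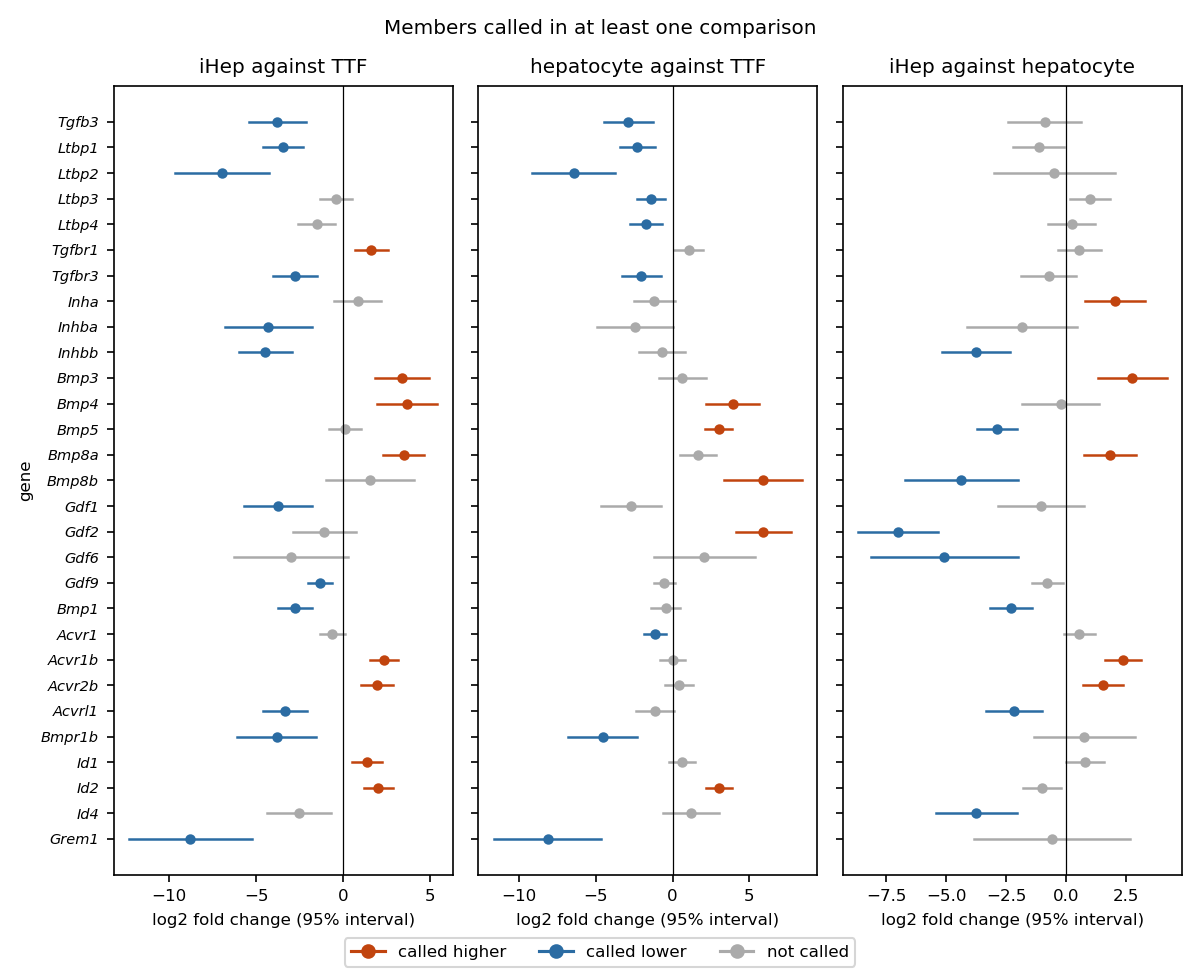
Log2 fold change with its 95% interval for the 29 genes called in at least 1 comparison, in iHep against TTF, hepatocytes against TTF and iHep against hepatocytes, coloured by call. Grem1 and Ltbp2 showed the largest falls against TTF in both panels, and Gdf2 the largest fall in iHep against hepatocytes.

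Of the 4 Id genes, which encode inhibitors of basic helix-loop-helix factors and are direct BMP targets, Id1 and Id2 rose in iHep, and Id2 rose in hepatocytes. Id2 was at 0.28, 0.68, 0.92 and 0.51 on the iHep arrays, 1.83, 1.01, 1.21 and 2.46 on the hepatocyte arrays and -0.82, -1.74 and -1.71 on the TTF arrays. All TTF arrays lay below all iHep and hepatocyte arrays, and the hepatocyte arrays lay above the iHep arrays. Id2 rose by 2.02 ± 0.39 (adjusted p = 0.0057) in iHep and rose by 3.05 ± 0.39 (adjusted p = 0.00071) in hepatocytes, and both calls held in every alternative. Id1 was at 3.67, 3.8, 5.02 and 4.66 on the iHep arrays, 3.86, 2.96, 3.36 and 3.9 on the hepatocyte arrays and 2.62, 3.0 and 3.11 on the TTF arrays. All iHep arrays exceeded all TTF arrays, replicates 3 and 4 by most, and the hepatocyte arrays overlapped both. Id1 rose by 1.38 ± 0.38 (adjusted p = 0.037) in iHep, and its change in hepatocytes was 0.61 ± 0.38 (adjusted p = 0.34). The iHep call of Id1 did not hold without TTF replicate 1, 2 or 3, or without iHep replicate 3 or 4, or without iHep replicates 3 and 4 together, or without hepatocyte replicates 3 and 4 together, or in a fit of these 2 groups alone (log2 change 0.83 to 1.48, adjusted p = 0.057 to 0.17). Id3 was at 3.13, 3.0, 2.6 and 1.46 on the iHep arrays, 2.69, 1.97, 3.44 and 3.76 on the hepatocyte arrays and 3.36, 2.38 and 2.75 on the TTF arrays, with overlapping groups and changes against TTF of -0.28 ± 0.51 (adjusted p = 0.79) in iHep and 0.13 ± 0.51 (adjusted p = 0.91) in hepatocytes. Id4, the most restricted of the family, was at -5.26, -4.97, -5.38 and -4.63 on the iHep arrays, -2.66, -1.07, 0.09 and -1.61 on the hepatocyte arrays and -0.3, -3.46 and -3.86 on the TTF arrays. Its iHep arrays lay below all hepatocyte and TTF arrays, and TTF replicate 1 stood apart from the other TTF arrays. Id4 fell by 3.75 ± 0.77 (adjusted p = 0.0095) in iHep against hepatocytes, a call that did not hold without hepatocyte replicates 3 and 4 together (log2 change -3.2, adjusted p = 0.054), and its change in iHep against TTF was -2.52 ± 0.83 (adjusted p = 0.072).

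Among the genes of gremlin, noggin, chordin and follistatin, Grem1 was the one called. It encodes a protein that binds and blocks BMP2, BMP4 and BMP7 and is made by fibroblasts and other mesenchymal cells. Its levels were -7.53, -7.47, -3.39 and -2.87 on the iHep arrays, -3.32, -8.46, -2.24 and -4.8 on the hepatocyte arrays and 1.76, 4.37 and 4.23 on the TTF arrays. All TTF arrays lay above 0 and all iHep and hepatocyte arrays below 0. iHep replicates 1 and 2 lay far below replicates 3 and 4, and hepatocyte replicate 2 lay far below its group. Grem1 fell by 8.77 ± 1.59 (adjusted p = 0.0042) in iHep, 438-fold, and fell by 8.16 ± 1.59 (adjusted p = 0.0078) in hepatocytes, 286-fold. Since 2 of 4 iHep and 3 of 4 hepatocyte arrays exceeded the limit of measurement, the sizes depend on that limit. Both calls held in every alternative. The fibroblast marker sum given above moved with Grem1 across the iHep arrays and was highest on the TTF arrays, and its part in the Grem1 result was not tested. On hepatocyte replicates 3 and 4 the marker sum was 7.54 and 7.13 while Grem1 was at -2.24 and -4.8, against 1.76 on the TTF array of lowest Grem1 level, where the marker sum was 8.32.

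**Figure D4:**
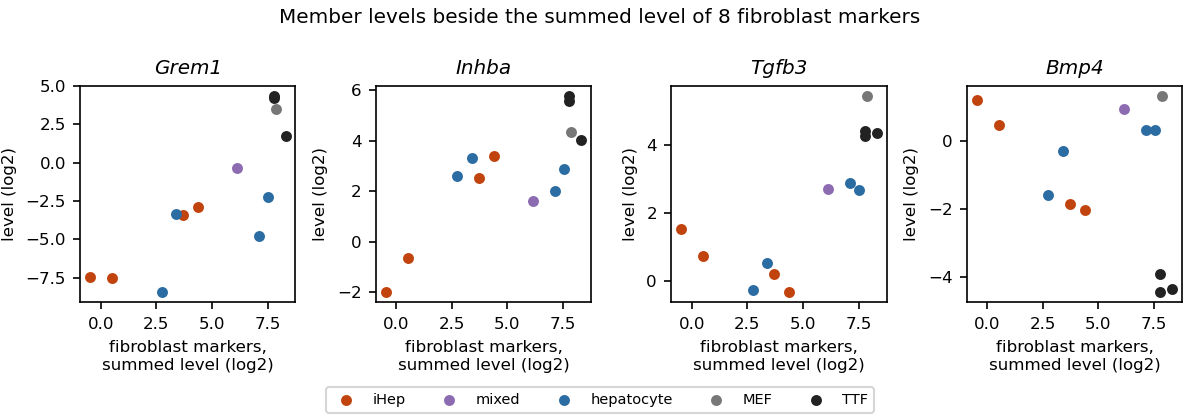
Level of Grem1, Inhba, Tgfb3 and Bmp4 (vertical axes, log2, relative to the 75th percentile of each array) beside the summed level of 8 fibroblast markers (horizontal axes, log2) on 13 arrays, coloured by group. Grem1 was lowest on hepatocyte replicate 2 and next lowest on iHep replicates 1 and 2, which had the lowest marker sums, Inhba was lowest on those 2 iHep arrays, and Bmp4 was lowest on the 3 TTF arrays, which had marker sums of 7.78 to 8.32. On the MEF array, with a marker sum of 7.88 in that range, Bmp4 was highest, at 1.32. Hepatocyte replicate 3 had a marker sum of 7.54 and Bmp4 at 0.33.

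The genes of the other 3 antagonists were not called. Fst, whose product follistatin neutralises activins, was at -1.82, -1.64, -0.54 and -0.3 on the iHep arrays, 0.3, -1.3, -0.81 and -0.85 on the hepatocyte arrays and 0.09, -1.86 and -2.03 on the TTF arrays. Nog, which encodes the BMP antagonist noggin, was at -4.5, -4.6, -5.59 and -6.39 on the iHep arrays, -3.67, -4.43, -5.14 and -4.75 on the hepatocyte arrays and -4.74, -5.6 and -6.07 on the TTF arrays. Groups overlapped for both genes. The log2 changes of Fst against TTF were 0.19 ± 0.6 (adjusted p = 0.88) in iHep and 0.6 ± 0.6 (adjusted p = 0.57) in hepatocytes, and those of Nog were 0.2 ± 0.53 (adjusted p = 0.86) and 0.97 ± 0.53 (adjusted p = 0.26). Chrd, for chordin, had log2 changes of 0.61 ± 0.32 (adjusted p = 0.26) in iHep and 0.97 ± 0.32 (adjusted p = 0.071) in hepatocytes, where no hepatocyte array overlapped the TTF arrays.

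**Figure D5:**
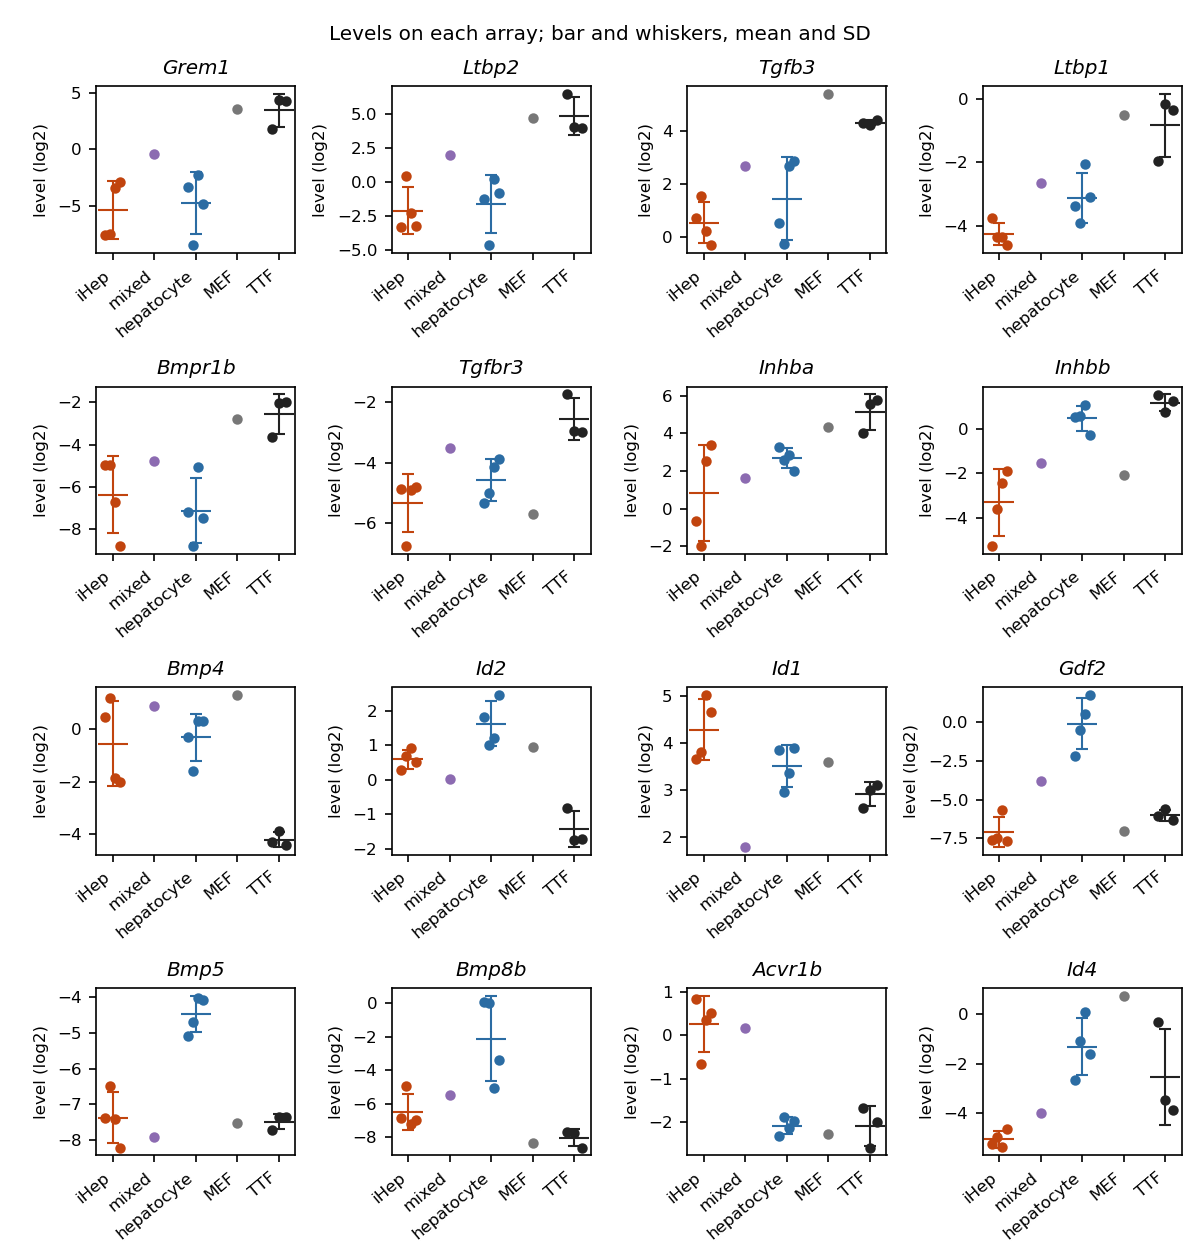
Levels of selected genes on each array (points, log2 scale), with the mean and SD of groups of 3 or 4 arrays (horizontal bar and whiskers), in the order iHep, mixed culture, hepatocyte, MEF and TTF. Grem1, Ltbp2, Tgfb3, Ltbp1, Bmpr1b and Tgfbr3 lay lower on every iHep and hepatocyte array than on any TTF array, and Bmp4 and Id2 lay higher.

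For the 8 genes called in the same direction in iHep and hepatocytes, the direct comparison of iHep with hepatocytes made no call. The log2 difference was -0.61 ± 1.47 for Grem1, with a 95% interval of -3.87 to 2.64, and -0.5 ± 1.13 for Ltbp2, with an interval of -3.0 to 2.01. For Bmp4 it was -0.24 ± 0.73 with an interval of -1.84 to 1.36, for Bmpr1b 0.75 ± 0.96 (-1.36 to 2.87), for Tgfb3 -0.91 ± 0.68 (-2.42 to 0.6) and for Tgfbr3 -0.74 ± 0.52 (-1.9 to 0.41). These intervals reach beyond a 2-fold difference, so they do not show that the levels were alike. The intervals of Ltbp1 (-2.21 to -0.1) and Id2 (-1.83 to -0.24) lay below 0, and neither gene passed after adjustment (adjusted p = 0.13 and 0.081).

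The mixed culture had 1 array, so its differences from TTF have no replicate check. Counted were genes at least 4-fold from the TTF mean and outside the range of the TTF arrays. By this rule 8 of the 59 genes were higher in the mixed culture, where 6.49% of all genes were, and 7 were lower, where 3.67% were. The higher genes were Acvr1b, Bmp3, Bmp4, Bmp7, Bmp8a, Bmp8b, Gdf2 and Tgfb2, counted by their measured levels. With TTF under the limit, Bmp8b was at least 3.63-fold higher, a bound that does not reach 4-fold. Bmp7 was at -0.78 in the mixed culture, a log2 difference of 5.32 from the TTF mean, and thus above every iHep array. Bmp4 was at 0.92, a difference of 5.15, and Bmp3 at -2.49, a difference of 5.09. Both genes were also called higher in iHep. The lower genes were Acvrl1, Bmpr1b, Gdf1, Grem1, Inhba, Inhbb and Ltbp2, all of which were called lower in iHep. Grem1 was at -0.37 and Ltbp2 at 2.0, differences of -3.83 and -2.83, between the iHep and the TTF arrays. The fibroblast marker sum of this culture, 6.14, also lay between the iHep and the TTF arrays.

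The MEF array likewise had no replicate. On it 8 of the 59 genes were higher than in TTF by the same rule, where 4.02% of all genes were, and 2 were lower, where 2.04% were. The higher genes were Bmp3, Bmp4, Bmp6, Fst, Gdf6, Id2, Id4 and Tgfb2, and the lower ones Inhbb and Tgfbr3. Bmp4 was at 1.32 on the MEF array, a difference of 5.54 from the TTF mean, and Gdf6 was at 1.35, a difference of 5.62. The Bmp4 level was above every iHep and hepatocyte array. Grem1 and Ltbp2 were close to the TTF mean, with levels of 3.52 and 4.67 and differences of 0.06 and -0.15. Of the 6 genes lower in both iHep and hepatocytes than in TTF, Tgfbr3 was thus also low on the MEF array, at -5.7, below all but 1 of the iHep arrays. The summed level of 6 epithelial markers was 5.27 on the MEF array, against -2.94 to -0.49 on the TTF arrays. Its bright members there were the keratin genes Krt8, at 4.4, and Krt18, at 4.12. Cdh1, at -4.59, lay above the TTF arrays and below every iHep array. Epcam, Cldn4 and Cldn7 on the MEF array lay within the TTF range.

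Of 17 measured genes known to be induced by TGF-beta in mesenchymal cells, 13 were called lower and 0 higher in iHep against TTF, with a median log2 change of -4.68. In hepatocytes against TTF 3 were lower and 0 higher (median -1.58), and in iHep against hepatocytes 7 were lower and 0 higher (median -2.64). Of all genes, 6.52% were called lower and 6.86% higher in iHep against TTF. The shares were 4.91% and 7.47% in hepatocytes against TTF, and 7.5% and 6.25% in iHep against hepatocytes. Tgfbi, a matrix protein named for its induction, fell by 8.37 ± 1.48 (adjusted p = 0.0036) in iHep and fell by 6.96 ± 1.48 (adjusted p = 0.012) in hepatocytes against TTF. Lox, for the collagen cross-linking lysyl oxidase, fell by 9.22 ± 1.31 (adjusted p = 0.001) in iHep against TTF and fell by 5.85 ± 1.22 (adjusted p = 0.01) against hepatocytes. Col1a1, a collagen I chain, fell by 7.99 ± 2.3 (adjusted p = 0.042) in iHep against TTF. The epithelial-mesenchymal transition factor gene Snai2 fell by 3.15 ± 0.92 (adjusted p = 0.048) and the matrix gene Postn fell by 5.23 ± 0.86 (adjusted p = 0.0029) in hepatocytes against TTF. Against hepatocytes, iHep were lower in Tagln, an actin-binding protein gene that fell by 5.81 ± 0.8 (adjusted p = 0.0012), and in Col1a2, which fell by 4.82 ± 1.39 (adjusted p = 0.041). Without TTF replicate 3 the list had 8 genes lower in iHep and 1 lower in hepatocytes against TTF. Without hepatocyte replicates 1 and 2 it had 1 lower in hepatocytes against TTF, and 5 without either pair of iHep arrays. Without hepatocyte replicates 3 and 4 it had 2 lower in iHep against hepatocytes. Of the 9 calls named, 5 held whichever single array was left out. Col1a1's call in iHep against TTF did not hold without any 1 TTF array, iHep replicate 1 or 2 or hepatocyte replicate 1 or 4. It was also lost without iHep replicates 1 and 2 together (log2 change -3.78 to -8.07 over these settings, adjusted p = 0.054 to 0.12). The call of Tgfbi in hepatocytes against TTF did not hold without TTF replicate 3 or hepatocyte replicates 1 and 2 together (log2 change -6.78, adjusted p = 0.053 to 0.082). Snai2's call in hepatocytes against TTF did not hold without any 1 TTF array, iHep replicate 1 or 4 or hepatocyte replicate 1 or 2. Nor did it hold without hepatocyte replicates 1 and 2 together (log2 change -1.79 to -3.21 over these settings, adjusted p = 0.056 to 0.3). Col1a2's call in iHep against hepatocytes did not hold without any 1 TTF array, iHep replicate 1 or 2 or hepatocyte replicate 1, 3 or 4. Leaving out iHep replicates 1 and 2 together or hepatocyte replicates 3 and 4 together also ended it. The log2 change over these settings was -2.58 to -5.27 (adjusted p = 0.055 to 0.23). The call of Lox in iHep against hepatocytes did not hold without hepatocyte replicates 3 and 4 together (log2 change -4.43, adjusted p = 0.075). Col1a1, Col1a2 and Col3a1 of this list are also fibroblast markers here, and the part of fibroblast content was not tested.

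Of 9 measured BMP target and hepcidin pathway genes, 1 rose and 1 fell in iHep against TTF, 2 rose and 1 fell in hepatocytes against TTF, and 3 were higher and 4 lower in iHep than in hepatocytes. The shares of all genes called higher and lower were 6.86% and 6.52%, 7.47% and 4.91%, and 6.25% and 7.5% in the same order. Hamp, the gene of hepcidin, averaged 0.81 ± 4.4 on the hepatocyte arrays and -7.63 ± 0.75 on the TTF arrays (SD, n = 4 and 3). It rose by 8.44 ± 1.92 (adjusted p = 0.016) in hepatocytes against TTF and fell by 7.86 ± 1.78 (adjusted p = 0.015) in iHep against hepatocytes. Hamp was thus dim in TTF and, after a fall of that size, in iHep. The sizes of both changes may therefore depend on the limit of measurement, and the hepatocyte arrays varied widely. The iron-sensing receptor gene Tfr2 rose by 5.75 ± 0.5 (adjusted p = 6.5e-05) in hepatocytes against TTF and fell by 6.04 ± 0.46 (adjusted p = 4.3e-05) in iHep against hepatocytes. Tmprss6, for a protease that limits hepcidin expression, fell by 3.88 ± 0.77 (adjusted p = 0.0083) in iHep against hepatocytes. The homeobox genes Msx1, Msx2 and Dlx5 went the other way in that comparison. Msx1 rose by 4.18 ± 0.92 (adjusted p = 0.013), Msx2 rose by 4.86 ± 1.4 (adjusted p = 0.041) and Dlx5 rose by 1.12 ± 0.28 (adjusted p = 0.022). Msx2 also fell by 5.52 ± 1.51 (adjusted p = 0.037) in hepatocytes against TTF. In iHep against TTF, Hamp2 rose by 1.7 ± 0.43 (adjusted p = 0.025) and Atoh8, a BMP-induced transcription factor gene, fell by 2.52 ± 0.69 (adjusted p = 0.034). Leaving out 1 array gave 0 or 1 gene in each direction in iHep against TTF, 1 to 3 higher and 0 to 2 lower in hepatocytes against TTF, and 1 or 2 higher in iHep against hepatocytes. Of the 11 calls named, 5 held whichever single array was left out. The call of Hamp2 in iHep against TTF did not hold without TTF replicate 2 or 3 or iHep replicate 1, 3 or 4. Nor did it hold without iHep replicates 3 and 4 together (log2 change 1.33 to 1.77 over these settings, adjusted p = 0.054 to 0.12). The call of Atoh8 in iHep against TTF did not hold without TTF replicate 1 or 3 or any 1 iHep array. It was also lost without either pair of iHep arrays (log2 change -1.65 to -2.89 over these settings, adjusted p = 0.052 to 0.11). The call of Hamp in hepatocytes against TTF did not hold without any 1 TTF array (log2 change 8.02 to 8.73, adjusted p = 0.052 to 0.058). The call of Msx2 in hepatocytes against TTF did not hold without any 1 TTF array or hepatocyte replicate 1, 2 or 4. Leaving out either pair of hepatocyte arrays also ended it (log2 change -4.92 to -5.85 over these settings, adjusted p = 0.074 to 0.18). The call of Hamp in iHep against hepatocytes did not hold without iHep replicates 1 and 2 together (log2 change -6.67, adjusted p = 0.067). The call of Msx1 in iHep against hepatocytes did not hold without hepatocyte replicates 1 and 2 together (log2 change 3.56, adjusted p = 0.093). The call of Msx2 in iHep against hepatocytes did not hold without any 1 TTF array, iHep replicate 1 or 2 or any 1 hepatocyte array. It was also lost without iHep replicates 1 and 2 together or either pair of hepatocyte arrays. The log2 change over these settings was 1.85 to 5.26 (adjusted p = 0.05 to 0.19). The call of Dlx5 in iHep against hepatocytes did not hold without iHep replicate 3 or 4 or hepatocyte replicate 1 or 2. Nor did it hold without iHep replicates 3 and 4 together or hepatocyte replicates 1 and 2 together. The log2 change over these settings was 0.82 to 1.08 (adjusted p = 0.052 to 0.15).

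Of 34 measured extracellular regulators, 0 were higher and 7 lower in iHep against TTF, 3 were higher and 5 lower in hepatocytes against TTF, and 0 were higher and 4 lower in iHep against hepatocytes. The shares of all genes called higher and lower were 6.86% and 6.52%, 7.47% and 4.91%, and 6.25% and 7.5% in the same order. The median log2 changes of the list were -0.37, 0.04 and -0.1. Thbs1, whose product thrombospondin activates latent TGF-beta, fell by 5.19 ± 0.55 (adjusted p = 0.00016) in iHep and fell by 2.52 ± 0.55 (adjusted p = 0.013) in hepatocytes against TTF. Rgma, a BMP co-receptor gene, fell by 8.47 ± 1.36 (adjusted p = 0.0021) in iHep and fell by 5.84 ± 1.36 (adjusted p = 0.018) in hepatocytes. Htra1, a secreted protease gene, fell by 4.22 ± 1.25 (adjusted p = 0.048) in iHep. Itgb6, an epithelial integrin subunit that also activates latent TGF-beta, rose by 3.19 ± 0.3 (adjusted p = 0.0001) in hepatocytes against TTF and fell by 2.7 ± 0.28 (adjusted p = 0.00022) in iHep against hepatocytes. Eng, for the endothelial co-receptor endoglin, fell by 6.16 ± 0.79 (adjusted p = 0.0008) and the proteoglycan gene Dcn fell by 3.35 ± 0.89 (adjusted p = 0.03) in iHep against hepatocytes. Further hepatocyte changes against TTF were those of the antagonist genes Nbl1, Sost and Lefty2. Nbl1 fell by 2.73 ± 0.75 (adjusted p = 0.036), Sost rose by 1.03 ± 0.29 (adjusted p = 0.039) and Lefty2 rose by 1.81 ± 0.36 (adjusted p = 0.0088). Itgb6 was dim in TTF, at a mean of -8.07, and in iHep, at -7.58, and Lefty2 was dim in TTF, at -7.87. The sizes of the changes of Itgb6 and Lefty2 may therefore depend on the limit of measurement. The lower genes in hepatocytes against TTF numbered 1 to 7 with 1 array left out, and fewer by over 1.5 times than the 5 without any 1 TTF array or without hepatocyte replicate 1 or 2. Of the 12 calls named, 7 held whichever single array was left out. Htra1's call in iHep against TTF did not hold without TTF replicate 2 or 3, any 1 iHep array or hepatocyte replicate 1 or 4. Leaving out either pair of iHep arrays also ended it (log2 change -3.62 to -4.59 over these settings, adjusted p = 0.059 to 0.19). The call of Nbl1 in hepatocytes against TTF did not hold without any 1 TTF array or hepatocyte replicate 1 or 2. Nor did it hold without hepatocyte replicates 1 and 2 together (log2 change -1.94 to -3.07 over these settings, adjusted p = 0.066 to 0.24). Sost's call in hepatocytes against TTF did not hold without TTF replicate 2 or 3, iHep replicate 3 or hepatocyte replicate 1, 3 or 4. It was also lost without either pair of hepatocyte arrays (log2 change 0.91 to 1.1 over these settings, adjusted p = 0.056 to 0.16). The call of Rgma in hepatocytes against TTF did not hold without TTF replicate 2 or 3 or hepatocyte replicate 1. Leaving out hepatocyte replicates 1 and 2 together also ended it (log2 change -4.07 to -5.79 over these settings, adjusted p = 0.051 to 0.14). The call of Lefty2 in hepatocytes against TTF did not hold without hepatocyte replicates 1 and 2 together (log2 change 1.82, adjusted p = 0.058). The call of Dcn in iHep against hepatocytes did not hold without iHep replicate 3 or hepatocyte replicate 3 or 4. Nor did it hold without iHep replicates 1 and 2 together or hepatocyte replicates 3 and 4 together. The log2 change over these settings was -2.21 to -3.39 (adjusted p = 0.061 to 0.18).

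Of 15 measured intracellular regulators, 2 rose and 2 fell in iHep against TTF, 0 rose and 1 fell in hepatocytes against TTF, and 1 was higher and 0 lower in iHep against hepatocytes. The shares of all genes called higher and lower were 6.86% and 6.52%, 7.47% and 4.91%, and 6.25% and 7.5% in the same order. The median log2 changes of the list were -0.17, -0.4 and 0.0. Pmepa1, a TGF-beta-induced inhibitor of receptor-regulated Smads, fell by 2.92 ± 0.4 (adjusted p = 0.00081) in iHep and fell by 2.85 ± 0.4 (adjusted p = 0.0013) in hepatocytes. The gene of the Smad corepressor Tgif2 rose by 1.98 ± 0.42 (adjusted p = 0.01) in iHep against TTF and rose by 2.41 ± 0.39 (adjusted p = 0.0029) against hepatocytes. Nedd4l, for a ubiquitin ligase that acts on Smads, rose by 1.74 ± 0.47 (adjusted p = 0.032), and the corepressor gene Ski fell by 1.06 ± 0.32 (adjusted p = 0.049) in iHep against TTF. Of the 6 calls named, 4 held whichever single array was left out. Ski's call in iHep against TTF did not hold without any 1 TTF array, iHep replicate 2, 3 or 4 or hepatocyte replicate 2, 3 or 4. It was also lost without iHep replicates 3 and 4 together or either pair of hepatocyte arrays. The log2 change over these settings was -0.78 to -1.21 (adjusted p = 0.054 to 0.19). The call of Nedd4l in iHep against TTF did not hold without any 1 TTF array or iHep replicate 1, 3 or 4. Nor did it hold without either pair of iHep arrays (log2 change 1.3 to 1.98 over these settings, adjusted p = 0.053 to 0.12).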

How the data were processed

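The deposited table holds linear intensities in 1 channel (Cy3) for 45018 features on 13 arrays. Per the submitters' processing notes, the authors extracted them with Agilent Feature Extraction 10.5.1.1, and how background was handled or values later scaled is not given in the sources used here. A shift to the 75th percentile was planned for unscaled values. Array medians and 75th percentiles differed, so log2 intensities were shifted in this way. Features with 1 gene symbol in the platform annotation (33653, of which 33517 matched the RefSeq gene table) were averaged per gene, giving 19087 genes. Another 56 features had several symbols and 11309 none, and these were not named.

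An array's limit of measurement was 3 times its local floor, the lowest value in a window of 101 neighbouring features. Of the 59 genes, 44 exceeded it on all arrays, 14 on some and 1 on none. The 11 iHep, hepatocyte and TTF arrays entered 1 limma fit (limma 3.58.1, R 4.3.3, eBayes). P-values were adjusted over all genes by Benjamini-Hochberg, with 95% intervals from the same fit. "At least" folds are given where no array of the dimmer group exceeded the limit. The fit was tested on simulated data. Python 3.11.15, pandas 2.3.3 and NumPy 2.4.6 handled the tables. The 59 genes, the other gene lists and the markers were chosen with earlier results of these data known, so none is independent evidence.

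Values on every array are given for called genes, up to the 12 with the largest change in each comparison, and for a set of core ligands, receptors, Smads, Id genes and antagonists whether called or not. From each further list the called genes are named that rose most and fell most, up to 3 each way, and other names were chosen after their values were seen. The alternatives were quantile and median scaling, a filter on dim genes, values set to the limit, the brightest probe, a fit of the 2 groups compared, a variance trend, the replicate number as a block, and leaving out each array or each pair of iHep or hepatocyte arrays. Leaving out hepatocyte pairs, and repeating the counts of the further lists without arrays, were chosen after seeing the data. Neither batch nor slide nor scan date is given in the sources used here.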

Additional observations from a re-analysis of the deposited data

Results flagged for a closer look

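With 4 arrays in a group, 1 array can stand apart from the other 3, and 107 gene and group combinations were checked for that with Dixon's test. It picked out 4 of them, while chance alone gives about 1 in 20. Bmp10 was at -8.68 on iHep replicate 4, under the limit of measurement, against -5.85 to -5.79 on the other iHep arrays. Tgfbr3 was at -6.75 on iHep replicate 2, also under the limit, against -4.88 to -4.8 on the other iHep arrays. Bmp8b was at -4.91 on iHep replicate 2, against -7.19 to -6.83 on the others. Gdf5 was at -4.06 on hepatocyte replicate 2, against -3.56 to -3.52 on the others. Of these genes Tgfbr3 and Bmp8b carry calls, and leaving out iHep replicate 2 ended none of their calls.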

How the results depend on the processing

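Of the 47 calls, 25 held in each of 23 alternatives, 28 held whichever single array was left out (14 of 20 in iHep against TTF, 7 of 14 in hepatocytes against TTF and 7 of 13 in iHep against hepatocytes), and 0 reversed direction. Leaving out 1 array gave 6 to 9 higher and 9 to 13 lower genes in iHep against TTF, 5 to 8 higher and 2 to 9 lower in hepatocytes against TTF, and 2 to 6 higher and 6 to 8 lower in iHep against hepatocytes. The lowest count of 2 lower genes in hepatocytes came without TTF replicate 2 or 3, and the 8 higher ones without TTF replicate 1. Without hepatocyte replicates 1 and 2, 3 genes were lower in hepatocytes against TTF and 2 higher in iHep against hepatocytes, and without iHep replicates 3 and 4 that last count was also 2. The cause was not tested, although fewer arrays entered these fits. Median scaling shifted all genes by -0.16, -0.4 and 0.24 in the 3 comparisons, and quantile scaling by -0.05, -0.12 and 0.04. With median scaling the split of all genes was 996 higher and 1923 lower in hepatocytes against TTF, against 1426 and 937 as reported (1129 and 1159 with quantile scaling), and 1832 and 1008 in iHep against hepatocytes, against 1192 and 1432, where the 59 genes split 8 and 8. Uncalled differences of iHep from hepatocytes changed sign in some settings. Bmp4 was 1.14 without iHep replicates 3 and 4, 0.39 without hepatocyte replicates 3 and 4, and 0.19 or 0.25 without iHep replicate 3 or 4 (range without 1 array -0.83 to 0.25). Bmpr1b was -0.63 without iHep replicates 1 and 2 and -0.11 without hepatocyte replicates 1 and 2. Grem1 was 1.57 without iHep replicates 1 and 2, 0.57 without hepatocyte replicates 3 and 4, and 0.12, 0.11 or 0.21 without iHep replicate 1, iHep replicate 2 or hepatocyte replicate 3 (range -1.87 to 0.21). Ltbp2 was 0.14 without iHep replicates 3 and 4, 0.84 without hepatocyte replicates 3 and 4 and 0.12 without hepatocyte replicate 3 (range -1.51 to 0.12), and Tgfb3 was 0.41 without hepatocyte replicates 3 and 4. Same-numbered arrays of different groups did not deviate together (correlations of -0.06 to 0.11), and 5 of 6, 2 of 6 and 4 of 8 arrays correlated best with their own number in the 3 comparisons. With the replicate block the counts were 7 higher and 11 lower in iHep against TTF, 7 and 8 in hepatocytes against TTF, and 5 and 9 in iHep against hepatocytes. With it the calls of Bmpr1b (-3.36, adjusted p = 0.087), Gdf9 (-1.29, 0.06) and Id1 (1.25, 0.076) in iHep against TTF, of Acvr1 (-1.13, 0.078) and Tgfb3 (-2.97, 0.063) in hepatocytes against TTF and of Gdf6 (-5.09, 0.064) in iHep against hepatocytes were not made. Dim signal limits Grem1, Gdf2, Bmpr1b, Gdf6, Bmp8b, Bmp5, Acvrl1 and Tgfbr3, whose lower groups lay partly or wholly under the limit of measurement.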
